A study of Mus musculus with 12 samples.

Results

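The 164 immunoglobulin V segments described here are the rows of the gene table whose symbol begins with Ighv, Igkv or Iglv and whose counts summed over all 12 libraries reached 60. The table holds 28999 genes and 217 such V rows, so 53 V rows fell below that sum. The members are 82 heavy chain segments of 113 in the table, 79 kappa segments of 101 and the 3 lambda segments, Iglv1, Iglv2 and Iglv3. The sum over all libraries chose the members, so the level of a member is a description. A segment that reached 60 through only 1 group had to differ between groups. Just inside the threshold, Igkv1-132 had 67 counts, all in wild type after 5-FU, Igkv4-63 had 70 and Ighv1-47 had 73. Just outside it, Ighv1-56 had 59, Igkv4-86 had 58, all in untreated Trim47-/-, and Igkv8-18 had 57, all in untreated wild type.

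The libraries are bulk RNA-seq of mouse bone marrow cells labelled LT-HSC, long-term haematopoietic stem cells, which maintain blood formation for life. The 4 groups of 3 libraries are untreated wild type, untreated Trim47-/-, wild type at 10 days of 5-fluorouracil (5-FU), and Trim47-/- at the same time with the drug. 5-FU is a drug that kills dividing cells, and Trim47 encodes a protein of the tripartite-motif E3 ubiquitin ligase family. The labels call the genotype of the 6 libraries Trim47 mutant or Trim47-/- and name no promoter or Cre. Strain, age, sex, the gate markers, the 5-FU dose and the part of Trim47 that was changed are not stated in the labels. The design asks how the genotype and the drug alter expression in these cells. Nothing in the labels says that the 3 libraries of a group came from separate mice, so p-values cover the variation among these 12 libraries, some or all of which may be technical.

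An antibody is made of paired heavy and light chains, and the light chain is either kappa or lambda. In a developing B cell the recombinase made by Rag1 and Rag2 joins 1 V segment to D and J segments in the heavy locus, and V to J in a light locus, so a B cell clone and its plasma cells carry 1 working V segment for each chain. In mouse the kappa light chain predominates and lambda has few V segments. Spliced transcripts then join the V segment to a constant gene, and antibody-secreting plasma cells, which live in bone marrow, make these transcripts at very high levels. Stem cells do not carry rearranged immunoglobulin genes, although unrearranged segments can be transcribed at low levels.

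The 3' end of a V segment is where recombination joins it to D or J, and the complementarity-determining loop called CDR3 starts there. The final 75 bases of 8 segments that held rank 1 or 2 of their chain by counts in at least 1 group are given below from the GENCODE M21 transcripts of GRCm38, as RNA-sense DNA from 5' to 3'. They are shown so that the segments which exchange places between groups can be compared. Capitals mark a match to TANTNNTGN, the pattern over the codons that end at the conserved cysteine before that loop. The first 4 lie in the heavy locus and the last 4 in the kappa locus, each in the V exon.
Ighv3-6 at chr12:114288152-114288226, minus strand: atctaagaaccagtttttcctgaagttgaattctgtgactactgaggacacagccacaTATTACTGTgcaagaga
Ighv1-82 at chr12:115952538-115952612, minus strand: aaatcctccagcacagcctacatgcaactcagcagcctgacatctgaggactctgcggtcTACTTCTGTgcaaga
Ighv8-8 at chr12:115294062-115294136, minus strand: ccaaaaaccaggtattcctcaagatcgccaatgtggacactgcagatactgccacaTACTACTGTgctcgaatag
Ighv1-53 at chr12:115158403-115158477, minus strand: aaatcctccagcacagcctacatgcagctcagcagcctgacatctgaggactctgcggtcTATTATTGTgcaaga
Igkv1-117 at chr6:68121753-68121827, plus strand: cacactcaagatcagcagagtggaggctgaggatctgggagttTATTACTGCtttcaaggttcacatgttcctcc
Igkv10-96 at chr6:68631963-68632037, minus strand: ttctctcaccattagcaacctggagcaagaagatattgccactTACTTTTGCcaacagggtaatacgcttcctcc
Igkv1-110 at chr6:68271193-68271267, plus strand: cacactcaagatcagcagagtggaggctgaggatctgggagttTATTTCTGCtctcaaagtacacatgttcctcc
Igkv6-15 at chr6:70406469-70406543, minus strand: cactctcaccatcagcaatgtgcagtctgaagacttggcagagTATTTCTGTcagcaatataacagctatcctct

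The pattern was present on the sense strand in the last 75 bases of 161 of the 164 members (98.2%). Among the last 75 bases of all 140741 GENCODE M21 transcripts it occurred on the sense strand in 7.70% and on either strand in 15.1%. All 164 members are annotated as V genes at the coordinates the table gives. The 82 heavy members lie on the minus strand of chromosome 12, the kappa members on chromosome 6 with 30 on the plus and 49 on the minus strand, and the lambda members on the minus strand of chromosome 16.

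Members of a family can be near-identical, and how the authors' counting treated reads that match several of them is unknown. Of the 164 members, 134 shared at least 1 stretch of 50 bases with another V gene, and 21 shared more than 50% of their 50-base stretches. Igkv1-117 shared 49.9% of its stretches with Igkv1-110, Ighv1-53 shared 57.6% with other V genes in all, and Ighv3-6 shared 2.91%. The values of single segments with such copies, and of Igkv1-117 and Igkv1-110 in particular, are uncertain to that extent. Chain totals hold both copies, but they too depend on that unknown handling of reads.

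Total counts were between 13919649 and 20703198 per library, and those of the untreated Trim47-/- libraries, at 20661120 to 20703198, were the highest. Trim47 itself was at 23.7 to 24.7 CPM (counts in every 1000000 of the TMM-scaled library size) in untreated wild type and at 16.5 to 23.7 CPM in the untreated libraries labelled Trim47-/-. That difference did not pass (log2 -0.31 ± 0.12 SE, adjusted p = 0.0632, edgeR's quasi-likelihood test with Benjamini-Hochberg adjustment, as for every adjusted p below). After 5-FU the levels were 33.2 to 38.1 and 10.1 to 12.2 CPM (log2 -1.64, adjusted p = 5.5e-07). Trim47 reads thus remained in the libraries labelled Trim47-/-, and every direction by genotype below is a direction between labels.

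Immunoglobulin RNA made up a small part of each library, and both the drug and the genotype label went with lower totals for each chain. Heavy V segments summed to 580, 589 and 585 CPM in untreated wild type, 520.1, 519.7 and 514 in untreated Trim47-/-, 188, 182 and 185 in wild type after 5-FU, and 139, 145 and 137 in Trim47-/- after 5-FU. Kappa V segments summed to 710.0, 699 and 697, then 670.5, 679 and 657, then 216, 227 and 221, and then 155, 156 and 152 CPM in the same order of groups. Lambda V segments were at 56.2, 59.1 and 56.7, then 34.8, 34.4 and 31.2, then 16.3, 13.7 and 17.4, and then 9.88, 9.84 and 10.9 CPM. No library of a group lay within the range of another group for any of the 3 chains.

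The 5-FU groups held 3.16-fold less heavy V, 3.17-fold less kappa V and 3.63-fold less lambda V than untreated in wild type. In Trim47-/- the same ratios were 3.69, 4.34 and 3.28. Between the genotype labels the chains were less alike. In untreated mice the level in Trim47-/- was 0.885 of wild type for heavy, 0.953 for kappa and 0.583 for lambda, and after 5-FU it was 0.757, 0.698 and 0.646. These totals are sums over chosen members and carry no test. All V counts together were 0.131%, 0.121%, 0.0442% and 0.0302% of the counts in untreated wild type, untreated Trim47-/-, treated wild type and treated Trim47-/-. In bulk libraries, fewer cells of a type and less RNA per cell cannot be told apart.

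**Figure D1:**
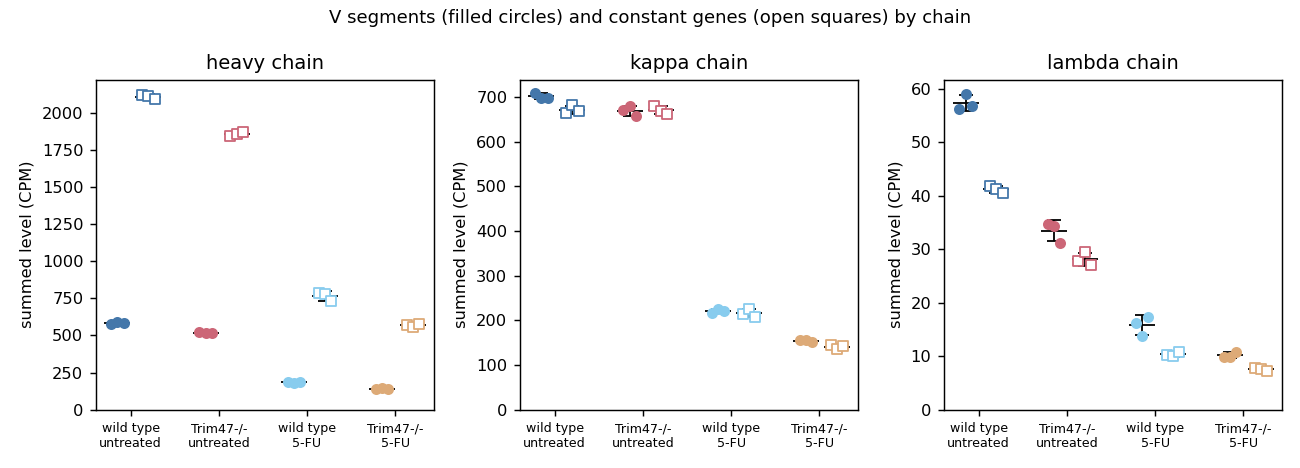
Summed level in CPM (y axis) of the V segments (filled circles) and constant genes (open squares) of each chain in the 4 groups (x axis), 1 point per library, with the mean and SD over 3 libraries. All 3 chains are lower in both 5-FU groups, and in the untreated groups Igkc overlaps between genotype labels while kappa V, heavy V and lambda V do not.

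The constant genes, which form the 3' part of the same transcripts, were also lower after 5-FU for each chain, while Igkc overlapped between the untreated genotype labels. Igkc, the single kappa constant gene, was at 671 ± 8.77 (SD, n = 3), 671 ± 8.60, 216 ± 8.79 and 141 ± 4.12 CPM over untreated wild type, untreated Trim47-/-, treated wild type and treated Trim47-/-. It fell with 5-FU in both genotypes, by 1.64 and 2.25 on the log2 scale (adjusted p = 3.74e-12 and 2.29e-13). Kappa V counts per Igkc count stayed between 0.986 and 1.14 in the 12 libraries. The heavy constant genes summed to 2108, 1858, 767 and 570 CPM (group means), and heavy V counts per heavy constant count were 0.277, 0.279, 0.242 and 0.246. These ratios are of counts, not of levels per length.

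Of the 14 constant and joining chain genes 12 were tested. With 5-FU 11 of them fell and 0 rose in wild type, and 11 fell and 0 rose in Trim47-/- (median log2 -1.68 and -2.15, beside 0.01 and -0.01 over all genes tested). Of all genes tested 50.6% and 60.5% passed in these comparisons. Between genotypes 4 were higher and 5 lower in untreated Trim47-/- (33% of all genes passed), and 3 were higher and 7 lower after 5-FU (54.7% of all genes). Igha, the constant gene of IgA, held 58.8% ± 0.141 (SD, n = 3) of heavy constant counts in untreated wild type and 48.7% ± 1.34 after 5-FU. Ighm, that of IgM, held 12.8% and 21.98%. In Trim47-/- the Igha shares were 60.1% and 49.8% and the Ighm shares 13.7% and 27.5%.

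Among the IgG classes the groups differed by gene. Ighg2b was at 315 ± 2.07 CPM in untreated wild type and 169 ± 1.30 in untreated Trim47-/- (SD, n = 3; log2 -0.90, adjusted p = 3.16e-09), while Ighg1 was at 50.8 ± 2.39 and 91.4 ± 2.66 CPM (log2 0.85, adjusted p = 9.13e-08). Ighg3 was at 0.069, 0 and 0 CPM in untreated wild type and 0 in all 3 wild-type libraries after 5-FU, against 3.72, 3.43 and 2.54 CPM in untreated Trim47-/- and 1.59, 2.03 and 2.75 CPM in Trim47-/- after 5-FU. Both Trim47-/- groups thus lay above both wild-type groups for Ighg3.

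Heavy and kappa segments kept nearly the same proportions while their totals changed. Heavy segments held 43.5% ± 0.379, 42.4% ± 0.299, 43.8% ± 0.865 and 46.0% ± 0.580 of V counts (SD, n = 3; untreated wild type, untreated Trim47-/-, wild type after 5-FU, Trim47-/- after 5-FU). Kappa held 52.2% ± 0.469, 54.8% ± 0.223, 52.4% ± 1.19 and 50.7% ± 0.467, and lambda 4.27% ± 0.111, 2.74% ± 0.128, 3.74% ± 0.439 and 3.35% ± 0.238. The heavy share was above every other library in the 3 of Trim47-/- after 5-FU, and the kappa share in the 3 of untreated Trim47-/-. The heavy and kappa shares of the 2 wild-type groups overlapped. As a share of light chain V counts, lambda was 7.55%, 4.76%, 6.67% and 6.20%, and as a share of light chain constant counts 5.78%, 4.03%, 4.57% and 5.12%. By both measures the untreated Trim47-/- libraries were the lowest.

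No heavy segment held more than a small share of its chain. Ighv3-6 led in 3 groups, with 5.72%, 5.11% and 5.23% of heavy V counts in untreated wild type, 5.96%, 6.03% and 5.76% in untreated Trim47-/- and 6.71%, 6.85% and 6.58% in wild type after 5-FU. In Trim47-/- after 5-FU it had rank 4 with 3.89%, and Ighv1-82 led with 5.36%, 6.10% and 6.18%. The ranking uses counts. Counts per base of the longest spliced transcript, 338 to 501 bases long over the members, gave the same leading segment in every group for all 3 chains. The deposited FPKM, which for 59 members uses a length above that of the longest spliced transcript, put Ighv1-80, Ighv1-26, Ighv8-8 and Ighv1-53 first among heavy segments in the 4 groups and left the kappa and lambda leaders as they were.

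Ighv3-6 had 480, 435 and 444 counts in untreated wild type, 633, 639 and 606 in untreated Trim47-/-, 200, 197 and 193 in wild type after 5-FU, and 77, 84 and 65 in Trim47-/- after 5-FU. In CPM the untreated groups overlapped (31.3 ± 1.63 and 30.6 ± 0.933, SD, n = 3; log2 -0.03, adjusted p = 0.777). It fell with 5-FU by 1.33 on the log2 scale in wild type and by 2.49 in Trim47-/- (adjusted p = 4.99e-08 and 4.36e-10).

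Ighv1-82, whose last 75 bases are printed above beside those of Ighv1-53 from the same family, moved otherwise. Its counts were 340, 362 and 354, then 531, 519 and 522, then 62, 72 and 62, and then 103, 122 and 117 in the same order of groups. In CPM it was at 24.3, 25.6, 4.13 and 8.24 (group means), so that it had rank 16 in its chain in wild type after 5-FU and rank 1 in Trim47-/- after 5-FU (log2 0.997 ± 0.09 SE between these, adjusted p = 1.98e-06). Ighv1-53 had 214, 218 and 193, then 124, 111 and 112, then 74, 53 and 59, and then 89, 107 and 98 counts. It was lower in Trim47-/- than in wild type without the drug (log2 -1.35, adjusted p = 4.9e-06) and higher after it (log2 0.85, adjusted p = 0.000146). Within Trim47-/- it rose with 5-FU by 0.32 on the log2 scale (adjusted p = 0.0340), a call that was lost in DESeq2 (adjusted p = 0.0671), without the filter on low counts (0.0879) and without library 2 or 3 of either Trim47-/- group (0.0705 to 0.125).

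The remaining leading heavy segments all fell with 5-FU in both genotypes. Ighv1-64 had rank 3 in untreated wild type at 22.5 CPM and was at 12.5, 4.23 and 2.0 CPM in the other groups. Ighv1-26 was at 19.0, 21.5, 5.85 and 4.53 CPM over the 4 groups. Ighv8-8 (15.9, 11.9, 7.77 and 6.58 CPM) and Ighv6-3 (13.5, 10.6, 6.95 and 4.72 CPM) fell least, and so took ranks 2 and 3 in wild type after 5-FU.

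The leading kappa segment changed more between groups. Igkv1-117 led in untreated wild type with 5.06%, 4.84% and 5.12% of kappa V counts. Igkv10-96 led in untreated Trim47-/- with 5.90%, 6.06% and 6.35% and in wild type after 5-FU with 8.80%, 8.98% and 8.03%, the highest share of a heavy or kappa segment in any group. Igkv6-15 led in Trim47-/- after 5-FU with 6.33%, 5.95% and 6.37%.

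Igkv10-96 had 335, 327 and 343 counts in untreated wild type, 808, 839 and 855 in untreated Trim47-/-, 301, 322 and 281 in wild type after 5-FU, and 47, 53 and 41 in Trim47-/- after 5-FU. In CPM these were 23.1 ± 0.523, 40.8 ± 1.12, 19.0 ± 1.29 and 3.4 ± 0.432 (SD, n = 3), and no group overlapped another. It rose with the genotype label in untreated mice (log2 0.82, adjusted p = 4.9e-06) and fell with it after 5-FU (log2 -2.48, adjusted p = 1.39e-09). The drug response was -0.28 on the log2 scale in wild type and -3.58 in Trim47-/- (adjusted p = 0.00581 and 2.48e-11).

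Igkv6-15, the leader in Trim47-/- after 5-FU, was there at 9.59 ± 0.293 CPM against 8.61 ± 1.62 in wild type after 5-FU (SD, n = 3). That difference did not pass (log2 0.16 ± 0.11 SE, adjusted p = 0.272), except without the second wild-type 5-FU library (0.32, adjusted p = 0.0163). Igkv1-117 was at 35.1, 33.8, 7.16 and 3.78 CPM and Igkv1-110, with which it shares bases, at 17.3, 24.0, 12.8 and 6.41 CPM over the 4 groups. Igkv6-25 was at 19.6 CPM in untreated wild type and 40.1 in untreated Trim47-/- (log2 1.03, adjusted p = 9.4e-05), and at 3.68 and 3.57 CPM after 5-FU. Igkv19-93 was at 29.3 and 26.4 CPM in untreated wild type and Trim47-/- and at 6.15 and 5.16 CPM after 5-FU, and neither difference passed in the fit of all 12 libraries (adjusted p = 0.142 and 0.0850). The untreated difference passed with only the 6 libraries compared (log2 -0.17, adjusted p = 0.0381), and the one after 5-FU without the second wild-type 5-FU library (log2 -0.35, adjusted p = 0.0298). Igkv14-111 (26.4, 19.1, 6.0 and 5.74 CPM), Igkv8-30 (14.4, 9.58, 10.7 and 6.60 CPM) and Igkv6-17 (22.2, 14.99, 7.96 and 6.55 CPM) also ranked in the first 3 of a group. Igkv8-30 fell least of these with 5-FU in wild type (log2 -0.43, adjusted p = 0.0126). Igkv5-43, named after its values were seen, had 161, 157 and 142 counts in wild type after 5-FU and 6, 4 and 0 in Trim47-/- after 5-FU.

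**Figure D2:**
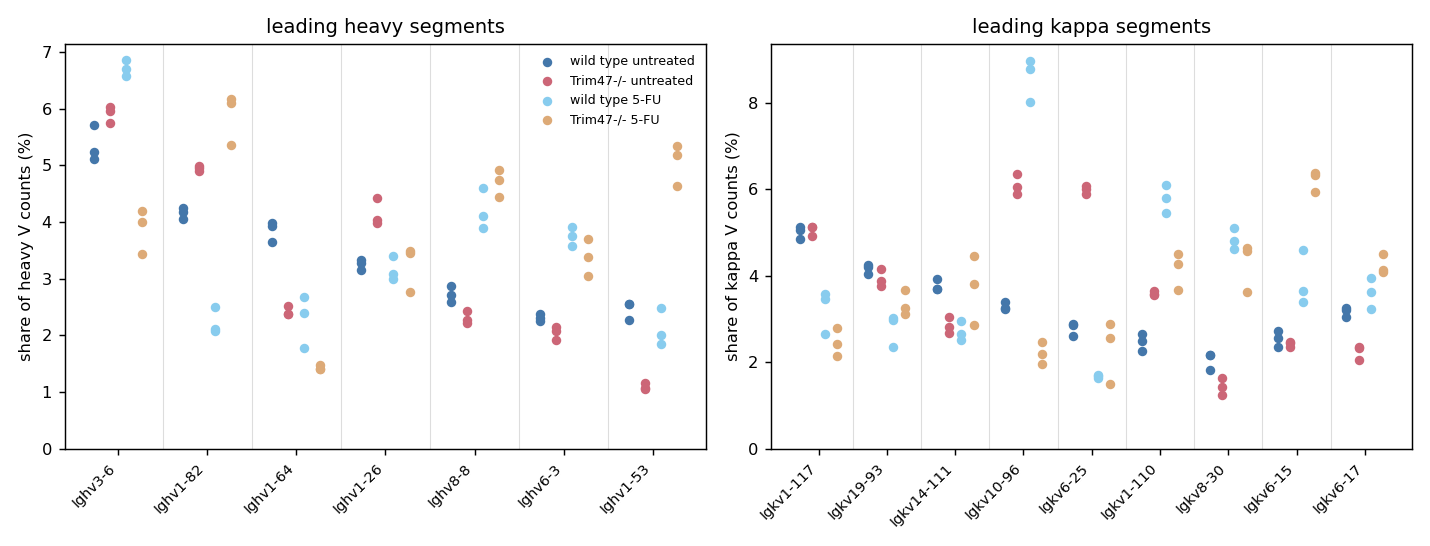
Share of heavy (left) and kappa (right) V counts in percent (y axis) for the segments that ranked in the first 3 of any group (x axis), 1 point per library and 1 colour per group. The 3 libraries of a group lie close together, Ighv1-82 and Ighv1-53 are highest in Trim47-/- after 5-FU, and Igkv10-96 is highest in wild type after 5-FU and lowest in Trim47-/- after 5-FU.

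Dominance over a whole chain was expressed as the effective number of segments, the inverse Simpson index, which equals the number of segments if all had equal shares and falls as few take more of the counts. For heavy segments it was 44.7 ± 0.375, 42.4 ± 0.334, 40.1 ± 0.404 and 36.4 ± 0.490 (SD, n = 3) over untreated wild type, untreated Trim47-/-, treated wild type and treated Trim47-/-. For kappa it was 44.4 ± 0.199, 36.8 ± 0.332, 31.6 ± 1.11 and 38.8 ± 0.385. The groups did not overlap for either chain. Heavy usage was most concentrated in Trim47-/- after 5-FU, and kappa usage in wild type after 5-FU, so the chains did not order the groups alike.

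The 10 leading segments held 34.6%, 36.9%, 35.7% and 40.6% of heavy and 34.4%, 40.4%, 44.1% and 39.9% of kappa counts in the same order of groups. To reach 50% of heavy counts, 17 segments were needed in untreated wild type and 14 in Trim47-/- after 5-FU. For kappa it took 16 or 17 in untreated wild type and 12 or 13 in wild type after 5-FU.

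**Figure D3:**
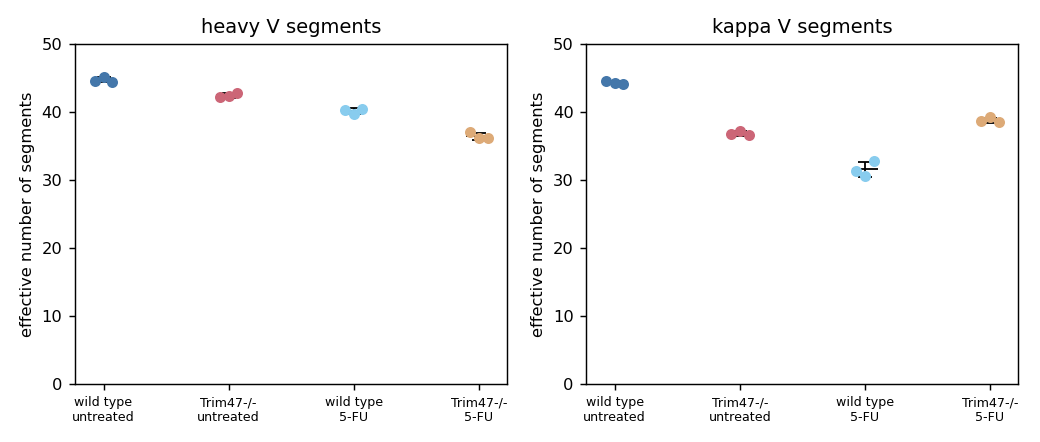
Effective number of heavy (left) and kappa (right) V segments (y axis, inverse Simpson index) in each library of the 4 groups (x axis), with the mean and SD over 3 libraries. Heavy values go from 44.7 in untreated wild type down to 36.4 in Trim47-/- after 5-FU, while the lowest kappa value, 31.6, is in wild type after 5-FU.

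Lambda had the strongest dominance, as its 3 segments allow. In the locus, given in order of coordinates, Iglc1, Iglc3 and then Iglv1 are followed by Iglc4, Iglc2, Iglv3 and Iglv2. All are on the minus strand, so that Iglv1 lies upstream of Iglc3 and Iglc1, and Iglv2 and Iglv3 lie upstream of Iglc2. As background, Iglv1 mostly joins the clusters of Iglc1 and Iglc3, and Iglv2 and Iglv3 mostly join that of Iglc2. The last 150 bases of Iglv1 and Iglv2 are printed because these near-copies behaved differently. They differ at 5 bases, shown in capitals (96.7% identity).
Iglv1 at chr16:19085017-19085166, minus strand: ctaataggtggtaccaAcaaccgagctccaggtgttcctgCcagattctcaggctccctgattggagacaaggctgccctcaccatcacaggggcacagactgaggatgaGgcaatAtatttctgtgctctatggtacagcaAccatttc
Iglv2 at chr16:19260401-19260550, minus strand: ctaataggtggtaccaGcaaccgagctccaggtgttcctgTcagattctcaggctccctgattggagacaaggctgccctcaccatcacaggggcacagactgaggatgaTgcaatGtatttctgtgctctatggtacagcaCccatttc

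Iglv1 had 649, 696 and 633 counts in untreated wild type, 526, 549 and 498 in untreated Trim47-/-, 207, 176 and 212 in wild type after 5-FU, and 76, 63 and 80 in Trim47-/- after 5-FU. It held 79.4% ± 2.27, 76.8% ± 2.34, 79.5% ± 2.11 and 51.7% ± 4.79 of lambda V counts (SD, n = 3). It was lower in Trim47-/- than in wild type without the drug (log2 -0.83, adjusted p = 2.09e-05) and after it (log2 -1.25, adjusted p = 1.28e-06).

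Iglv2 had 108, 103 and 114 counts in untreated wild type, 3, 7 and 0 in untreated Trim47-/-, 5, 4 and 9 in wild type after 5-FU, and 0 in all 3 libraries of Trim47-/- after 5-FU. It was the second lambda segment in untreated wild type, with 13.1% of the chain, and the last in each other group. It fell with the genotype label in untreated mice (log2 -5.45 ± 0.39 SE, adjusted p = 6.87e-06) and with 5-FU in wild type (log2 -4.28 ± 0.35 SE, adjusted p = 7.14e-06). Iglv2 reached 60 counts only through untreated wild type, so both directions were fixed when members were chosen. After 5-FU it was at least 1.75-fold lower in Trim47-/- than in wild type, with 3 counts per library taken as the floor for a count of 0, and for 5-FU in Trim47-/- both groups were too near that floor for a fold. Iglv2 shared 21.1% of its 50-base stretches with Iglv1 and Iglv3 shared 0 with any V gene.

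Iglv3 had 56, 55 and 75 counts, then 181, 145 and 141, then 46, 37 and 54, and then 61, 73 and 70 in the same order of groups. Its level was 4.28 ± 0.774, 7.62 ± 1.08, 2.88 ± 0.537 and 4.92 ± 0.460 CPM (SD, n = 3). It was higher in Trim47-/- than in wild type both without the drug (log2 0.83 ± 0.16 SE, adjusted p = 0.00197) and after it (log2 0.77 ± 0.18 SE, adjusted p = 0.00332), the opposite of Iglv1 and Iglv2. In Trim47-/- after 5-FU it held 48.3% of lambda V counts, and the effective number of lambda segments was 1.99 there against 1.53, 1.56 and 1.504 in the other groups.

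The lambda constant genes differed between groups as well. Iglc1 held 61.3% ± 1.23, 42.8% ± 0.405, 63.4% ± 3.75 and 32.9% ± 7.04 of lambda constant counts (SD, n = 3), and Iglc2 held 31.4%, 36.1%, 34.6% and 64.0%. In Trim47-/- after 5-FU, where Iglv3 was at its highest share, Iglc2 was also at its highest. Iglc3 held 21.1% in untreated Trim47-/- and 7.33% in untreated wild type.

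**Figure D4:**
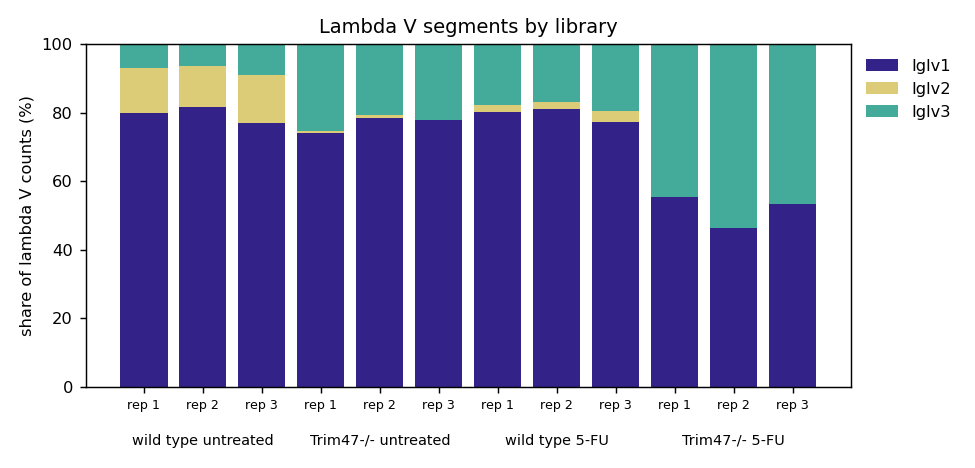
Share of lambda V counts in percent (y axis) held by Iglv1, Iglv2 and Iglv3, stacked for each of the 12 libraries (x axis, grouped). Iglv2 is visible mainly in untreated wild type, and Iglv3 takes 44.5% to 53.7% of each library of Trim47-/- after 5-FU.

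Which segments were used was almost fixed within a group and different between groups. For each pair of libraries the share of the chain's counts that lay on other segments was taken as the sum of absolute differences of shares, scaled so that 100% means no segment in common. Within groups it was 3.54% to 10.8% for heavy and 3.69% to 10.6% for kappa over 12 pairs. Between groups it was 25.4% to 37.4% for heavy and 23.6% to 38.7% for kappa over 54 pairs. Pearson's r over segments of log2(CPM + 0.5) was 0.971 to 0.993 (heavy, n = 82 segments) and 0.965 to 0.994 (kappa, n = 79) within groups, and 0.445 to 0.627 and 0.454 to 0.722 between them. The segments of a library share its depth and its reads, so these are descriptions.

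The untreated groups were nearest to each other, with 25.4% to 26.8% of heavy and 23.6% to 24.5% of kappa counts on other segments. The 2 groups of Trim47-/- were among the farthest apart, with 35.7% to 37.4% and 34.6% to 38.7%. Among the 10 leading heavy segments of each group, Ighv1-26 and Ighv3-6 were common to all 4 groups. No kappa segment was among the first 10 in all 4.

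**Figure D5:**
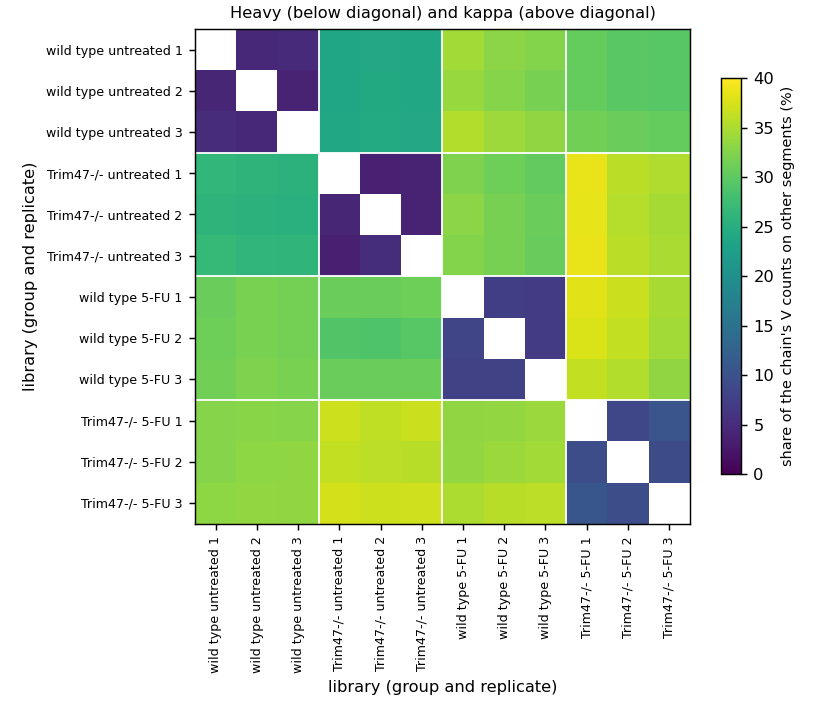
Share of V counts in percent (colour) that lies on other segments for each pair of the 12 libraries (both axes), with heavy segments below the diagonal and kappa segments above it. The 4 dark blocks along the diagonal are the pairs within a group (3.54% to 10.8%), and every pair between groups is at 23.6% or more.

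The libraries of a group also agreed on which segments were present. Of 539 pairs of a member and a group with at least 15 counts in the group, 0 had a library without a count. A chi-square test of the 3 libraries' counts took members and other genes with at least 15 counts in the group. These were 153, 150, 120 and 116 members in the 4 groups. Their median statistic per degree of freedom was 0.717, 0.650, 0.698 and 0.834, beside 0.693 for counting noise alone. At the 1% point 1.67% to 2.67% of these members lay beyond, and 10.8% to 12.1% of such other genes. The V segments of a group's libraries thus differed by little more than sampling noise. The share beyond it was smaller than for other genes, but the statistic also depends on the count. The genes were not matched by count, so the 2 shares are not a like comparison. Other genes differed beyond sampling noise, which does not show that a group's libraries came from separate mice. Each library was still counted as a sample.

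Of the 164 members 50 had no count in at least 1 group. All 3 libraries were at 0 for 3 heavy and 5 kappa segments in untreated wild type, 3 and 4 in untreated Trim47-/-, 12 and 13 in wild type after 5-FU, and 17 and 13 in Trim47-/- after 5-FU. The last groups had fewer V counts in all, 20049 and 12641 against 58352 and 74805, and a count of 0 there does not show that a segment was absent. Ighv1-20 had 53, 69 and 66 counts in wild type after 5-FU and 0 in the other 9 libraries. Igkv4-69 had 58, 54 and 56 counts in untreated Trim47-/- and 0 in the other 9. The highest level lay in untreated wild type for 89 members, in untreated Trim47-/- for 64, in wild type after 5-FU for 6 and in Trim47-/- after 5-FU for 5.

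In the test over 16319 genes all 164 members passed the filter on low counts. With 5-FU in wild type 138 members fell and 11 rose, where 50.6% of all genes tested passed (25.4% lower, 25.2% higher), and the median log2 change of the members was -1.98 (-1.86 with members at 0 in a group set to their bound) beside 0.01 over all genes. By chain, 68 of 82 heavy, 67 of 79 kappa and 3 of 3 lambda segments fell. The change was at least 2-fold in 112 that fell and 9 that rose, where 9.92% of all genes were called so (7.06% lower, 2.86% higher). Igkv4-90 had 141, 137 and 129 counts untreated and 0 in each library after 5-FU, at least 49.5-fold lower. It reached 60 counts only through untreated wild type, so its direction was fixed when members were chosen. Ighv1-7 was at least 29.5-fold lower (79, 85 and 79 counts to 0) and Igkv12-98 at least 29.1-fold lower (77, 75 and 87 counts to 0). In the other direction Ighv1-20 was at least 19.1-fold higher. All its counts lay in wild type after 5-FU, so that direction was fixed when members were chosen. Ighv1-12 rose from 9, 10 and 10 counts to 54, 38 and 35 (log2 1.99, adjusted p = 2.98e-05), and Igkv1-99 from 14, 22 and 13 to 55, 52 and 42 (log2 1.47, adjusted p = 0.000283).

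With 5-FU in Trim47-/- 130 members fell and 13 rose, where 60.5% of all genes tested passed, 30.8% lower and 29.6% higher (median log2 -2.16, or -1.81 with the bounds, beside -0.01 over all genes). Ighv1-69, with 211, 238 and 189 counts untreated and 0 after the drug, was at least 48.0-fold lower. Ighv14-4 and Igkv8-21 were at least 36.9-fold and 33.4-fold lower. Ighv3-1, with 0 counts in untreated Trim47-/- and 23, 34 and 35 after 5-FU, was at least 15.1-fold higher. Ighv4-1 rose from 6, 3 and 7 counts to 46, 26 and 42 (log2 3.36, adjusted p = 1.35e-05). It reached 60 counts only through Trim47-/- after 5-FU, so its rise is a description. Ighv1-12 rose from 24, 26 and 20 to 49, 42 and 35 (log2 1.40, adjusted p = 7.94e-05). Ighv1-12 was thus higher after 5-FU in both genotypes, while the totals of its chain were lower.

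Between the untreated genotypes members differed in both directions. In Trim47-/- 53 were higher and 74 lower, where 33% of all genes tested passed (17.6% higher, 15.4% lower), and the median log2 change was -0.15 beside 0.03 over all genes. By chain, 27 heavy segments were higher and 38 lower, 25 kappa segments higher and 34 lower, and 1 lambda segment higher and 2 lower. At 2-fold or more 22 were higher and 40 lower, where 3.75% of all genes were called (0.741% higher, 3.01% lower). Ighv3-1, with 121, 113 and 115 counts in wild type and 0 in Trim47-/-, was at least 54.8-fold lower, and Igkv2-112, with 68, 44 and 62 against 0, at least 27.3-fold lower. Igkv4-90 had 141, 137 and 129 against 0, 1 and 0 counts (adjusted p = 1.86e-07). Igkv2-112 and Igkv4-90 reached 60 counts only through untreated wild type, so these 2 falls were fixed when members were chosen. Ighv3-4, with 0 in wild type and 92, 89 and 92 in Trim47-/-, was at least 21.5-fold higher. Igkv14-130 was at least 15.3-fold and Igkv4-69 at least 13.2-fold higher. Igkv4-69 had no count outside untreated Trim47-/-. Igkv14-130 had none in either wild-type group and reached 60 counts only through untreated Trim47-/-. For both, the direction was fixed when members were chosen.

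After 5-FU 41 members were higher and 67 lower in Trim47-/-, where 54.7% of all genes tested passed, 27.2% higher and 27.6% lower (median log2 -0.19, or -0.15 with the bounds, beside 0.00 over all genes). Ighv1-58, Ighv1-20 and Ighv14-4 had 0 counts in each library of Trim47-/- and 71, 50 and 75, then 53, 69 and 66, and then 76, 54 and 57 in wild type. They were at least 19.0-fold, 18.2-fold and 18.1-fold lower. For Ighv1-20, with no count in any other group, that direction was fixed when members were chosen. Igkv4-50, with 0 in wild type and 46, 52 and 53 in Trim47-/-, was at least 19.2-fold higher. Ighv2-9-1 (0, 1 and 0 against 39, 28 and 40 counts) and Igkv2-109 (2, 0 and 1 against 37, 35 and 34) were higher in Trim47-/- as well (adjusted p = 4.89e-07 and 2.85e-07). The 4 comparisons share groups of libraries in pairs, so a segment at 0 in a single group enters 2 of them.

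The difference between the drug responses of the genotypes, the interaction, was higher in Trim47-/- for 44 members and lower for 62, where 54.9% of all genes tested passed (26.4% higher, 28.5% lower). By chain, 23 heavy members were higher and 29 lower, and 21 kappa members were higher and 32 lower. Of the lambda segments Iglv1 alone passed (log2 -0.42, adjusted p = 0.0186), a call that was lost without the second Trim47-/- library after 5-FU (adjusted p = 0.0527).

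Families of V segments were grouped by the number before the hyphen. Ighv1, the family with 42 of the 82 heavy members, held 55.5% ± 0.234, 56.8% ± 0.207, 53.1% ± 0.443 and 49.3% of heavy counts over the 4 groups (SD, n = 3). Igkv4, with 18 of the 79 kappa members, held 17.3%, 14.5%, 12.5% and 15.01%, and Igkv6, with 9, held 14.6%, 16.9%, 15.2% and 18.6%. Igkv10, with 3 members, held 5.12%, 9.22%, 12.3% and 3.81%, mainly through Igkv10-96. Igkv2, also with 3, held 4.14%, 1.40%, 0.584% and 3.78%.

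By position, the 28 heavy members nearest the J segments held 25.3%, 22.6%, 26.3% and 30.2% of heavy counts with 34.1% of the members, and the 27 farthest held 39.8%, 41.3%, 36.1% and 41.3% with 32.9%. For kappa the 27 nearest held 29.8%, 32.9%, 35.5% and 36.9%, and the 26 farthest 46.0%, 40.6%, 40.4% and 39.2%. Kappa segments on the plus strand, 30 of 79, held 44.6%, 41.5%, 37.1% and 43.9% of kappa counts. In the kappa locus segments on the strand of Igkc rearrange by deletion and those on the other strand by inversion, and Igkc lies on the plus strand.

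Genes that make or accompany rearranged immunoglobulin were described from lists chosen for their roles. Among 12 tested genes of the surrogate light chain and of recombination, 2 were higher and 3 lower in untreated Trim47-/-, 0 higher and 8 lower in Trim47-/- after 5-FU, 2 higher and 8 lower with 5-FU in wild type, and 1 higher and 8 lower with 5-FU in Trim47-/-. Of all genes tested 33%, 54.7%, 50.6% and 60.5% passed in these comparisons. Dntt, which adds bases at V-D-J joints, was at 312 ± 4.98, 482 ± 3.61, 428 ± 3.78 and 213 ± 5.74 CPM over the 4 groups (SD, n = 3), so it rose with 5-FU in wild type, where the V totals were lower. Rag1 was at 1.98, 2.79, 0.758 and 0.145 CPM, and the surrogate light chain gene Igll1 at 1.29, 1.09, 0.0632 and 0.289 CPM.

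Markers of B cells and plasma cells moved with the V totals in part. Of 14 tested B cell genes 10 fell and 2 rose with 5-FU in wild type (25.4% of all genes tested were lower and 25.2% higher), and 11 fell and 0 rose in Trim47-/- (30.8% and 29.6%). Ms4a1 (CD20) was at 0 to 0.484 CPM. Of the 2 signalling chains of the B cell receptor, Cd79a was at 0.362 to 5.04 CPM and fell with 5-FU in both genotypes, whereas Cd79b was at 15.8 to 21.5 CPM and rose with 5-FU in wild type (log2 0.26, adjusted p = 0.0347), against the V totals. The B cell list summed to 426 to 436, 409.8 to 481, 214 to 219 and 191 to 205 CPM in the 4 groups, mostly from Cd74 and Cd37, which other blood cells also express. Of 15 plasma cell genes 9 fell and 2 rose with 5-FU in wild type, and 7 fell and 6 rose in Trim47-/-. The list summed to 938 to 993, 707 to 906, 595 to 633 and 746 to 810.5 CPM in the 4 groups. It holds Jchain, at 364, 294, 78.0 and 52.9 CPM (group means), so these sums follow Jchain in part. Between the genotypes after 5-FU 7 plasma cell genes were higher and 3 lower in Trim47-/- (27.2% and 27.6% of all genes), where the V totals were lower. Mzb1, a chaperone of antibody-secreting cells, was at 6.33, 4.71, 3.01 and 2.12 CPM, in the order of the V totals. Xbp1, a transcription factor of secretory cells, was at 125, 103, 79.1 and 131 CPM and so was highest in Trim47-/- after 5-FU. Sdc1 (CD138) rose with 5-FU in wild type (log2 0.50, adjusted p = 0.000647). The part of these cells in the V levels was not tested.

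Jchain links IgA and IgM units and is made by plasma cells. Except in untreated wild type (365, 361 and 367 CPM), Jchain varied within groups as V segments did not. It was at 353, 358 and 171 CPM in untreated Trim47-/-, at 44.4, 92.6 and 96.9 in wild type after 5-FU, and at 29.1, 64.3 and 65.3 in Trim47-/- after 5-FU, so the third library of the first of these groups and the first library of the other two stood below the rest of their group. In those libraries heavy V was at 514, 188 and 139 CPM, within 2% of the group means.

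The labelled cell type was checked against 15 LT-HSC genes, which summed to 1247 to 1400, 1407 to 1579, 1311 to 1582 and 806 to 860 CPM. In Trim47-/- after 5-FU 14 of the 15 were lower than in wild type after 5-FU, and 12 of 12 neutrophil and monocyte genes were higher (median log2 0.88), where 27.6% of all genes tested were lower and 27.2% higher. The lower V totals of that group thus went with lower LT-HSC and higher myeloid genes, whose part in the result was not tested.

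The genes outside the V rows whose level over the 12 libraries was most like that of the leading segments were found among 14491 genes by Pearson's r of log2(CPM + 0.5). For Ighv3-6 they were Junb, Rhob and Btg2 (r = 0.995 for each), for Igkv10-96 Ptpn21, Eya2 and Mdc1 (r = 0.996), and for Iglv1 the gene models Gm37125, Gm4759 and Gm37352 (r = 0.991 to 0.992). With 4 groups and so many genes, high values are found for any such pattern, and r is given as a description.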

How the data were processed

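The authors deposited 1 table with a whole-number count per gene for each of the 12 libraries, not normalised, and an FPKM column for each, per the file headers. Libraries were stranded, paired-end and poly-A selected, per the labels' protocols. CASAVA 1.8, HISAT2, StringTie, edgeR and GRCm38 are named in the submitters' processing notes without roles. How counting was done, with which strand setting and with what handling of reads with several matches, was not given in the sources used here. The deposited FPKM equals the count scaled by library total and 1 length per gene. For 59 members, all with 2 or more GENCODE M21 transcripts, that length exceeds the longest spliced transcript, and for 41 of them it is within 1 base of the sum over transcripts. FPKM was therefore used only as an alternative.

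Counts of the whole table were fitted with edgeR 4.0.16 in R 4.3.3, with TMM scaling, the default low-count filter over the 4 groups, 1 mean per group and the quasi-likelihood test. The threshold was 0.05 after Benjamini-Hochberg adjustment over 16319 genes. The fit was tested on simulated counts with 200 changed genes. Python 3.11.15 with numpy 2.4.6, pandas 2.3.3, scipy 1.17.1 and matplotlib 3.10.9 did the rest. Groups and replicate numbers came from the sample titles. The members, lists and tests were chosen with earlier results of these data known. Named are the 3 heavy and 3 kappa segments with the highest mean CPM in each group, every lambda segment, and up to 3 rises and 3 falls per comparison among heavy and kappa members that passed, with 1 CPM or more on average in the 6 libraries and all libraries of one group above the other. Also named are the members and V rows nearest to 60 counts, genes of the lists, and the 3 genes most like each leading segment. For a group at 0, folds are bounds at 3 counts per library. PCR reads without molecular identifiers are not independent molecules, so floors cover counting error only. The alternatives are given in the closing section.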

Additional observations from a re-analysis of the deposited data

Results flagged for a closer look

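For 9 of the 19 leading and lambda segments the 5-FU response differed between the genotype labels by the interaction term of edgeR's quasi-likelihood test (Benjamini-Hochberg adjusted p under 0.05, where 54.9% of all genes tested passed). The 9 of 19 are a smaller share than that of all genes. The 19 were chosen for a high rank in a group or as lambda segments, so their differences are a description. Each value is a log2 response in Trim47-/- from which the wild-type response was subtracted.

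Igkv10-96 had the largest difference of the 9, -3.30 ± 0.11 SE (adjusted p = 9.52e-10), from a response of -0.28 in wild type and -3.58 in Trim47-/-. Igkv1-110 differed by -1.47 (-0.43 and -1.91, adjusted p = 2.07e-06). Ighv3-6 differed by -1.16 (-1.33 and -2.49, adjusted p = 4.22e-06), and Igkv6-25 by -1.08 (-2.41 and -3.49, adjusted p = 0.00134). The difference was -0.86 for Igkv1-117 (-2.29 and -3.16, adjusted p = 0.000939), -0.55 for Ighv1-26 (-1.70 and -2.24, adjusted p = 0.00451) and -0.42 for Iglv1 (-1.86 and -2.28, adjusted p = 0.0186). The call for Iglv1 was lost without the second Trim47-/- library after 5-FU (adjusted p = 0.0527).

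The other 2 segments differed in the other direction. Ighv1-53 differed by 2.20 ± 0.17 SE (adjusted p = 7.6e-07), from -1.88 in wild type and 0.32 in Trim47-/-, and Ighv1-82 by 0.92 (-2.56 and -1.64, adjusted p = 2.79e-05). Ighv1-53 shares 57.6% of its 50-base stretches with other V genes.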

How the results depend on the processing

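The count of members called was within 1.5 times of that reported in 74 of 75 recomputations. Of 312 recomputed chain values 46 moved by more than 1 SD, and these belonged to 33 of the 48 chain quantities. The other 266 include the means with 1 library left out. Such a mean cannot move by 1 SD of its 3 libraries, so the 266 are no measure of stability. The 62 members called at 2-fold or more between the untreated genotypes are fewer than the 127 called in all, because a fold is required. With each library left out in turn the counts were 114 to 119, 103 to 106, 142 to 145, 136 to 140 and 102 to 106 (genotype untreated, genotype after 5-FU, 5-FU in wild type, 5-FU in Trim47-/-, interaction). With the replicate number as a block (replicate block) they were 122, 107, 146, 142 and 103. Same-numbered libraries of different groups correlated at -0.084 to 0.179 in their deviations from group means and others at -0.217 to 0.127. The ranges overlapped, but the highest values were of same-numbered libraries, so a weak pairing by number was not excluded. The main fit took no block.

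On plain totals in place of TMM, heavy V was at 570.1, 512 and 194 CPM (untreated wild type, untreated Trim47-/-, wild type after 5-FU), and kappa V at 684 and 232 CPM in untreated and treated wild type. With V rows of at least 120 summed counts, kappa V in Trim47-/- after 5-FU was at 152 CPM and the effective numbers were 42.04 (heavy, untreated Trim47-/-), 43.8 (kappa, untreated wild type) and 37.6 (kappa, Trim47-/- after 5-FU). With rows of at least 1 count they were 45.2, 40.8 and 37.1 (heavy, untreated wild type, wild type and Trim47-/- after 5-FU) and 44.8 (kappa, untreated wild type).

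On FPKM, the length used exceeds the longest spliced transcript for 59 members. The heavy share of V was 42.1%, 40.4% and 41.4%, and the kappa share 53.5%, 56.6% and 54.5% (untreated wild type, untreated Trim47-/-, wild type after 5-FU). The lambda share was 4.41%, 2.99% and 3.61% (both untreated groups, Trim47-/- after 5-FU). The heavy leader became Ighv1-80 (4.50%), Ighv1-26 (5.27%) and Ighv8-8 (5.25%) in the first 3 groups, and Ighv1-53 in Trim47-/- after 5-FU. Kappa leaders stayed, at 5.19%, 7.00%, 9.74% and 7.44%, and Iglv1 held 84.3% in untreated wild type. Effective numbers were 42.9, 38.2 and 34.4 for heavy (untreated Trim47-/-, wild type and Trim47-/- after 5-FU), 42.6, 34.5, 28.4 and 34.7 for kappa, and 1.39 for lambda in untreated wild type, so kappa in Trim47-/- after 5-FU was no longer clearly above untreated Trim47-/-.

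The following were added after seeing the data. Per longest spliced transcript Ighv3-6 held 6.18% and 6.98% (untreated Trim47-/-, wild type after 5-FU), Igkv1-117 4.61% and Igkv6-15 6.64%. A Simpson index drawn without replacement gave 40.7 and 37.1 for heavy in wild type and Trim47-/- after 5-FU, and 39.5 and 2.0 for kappa and lambda in Trim47-/- after 5-FU.

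Of 1402 recomputed log2 changes of named segments 12 reversed, each of a difference that did not pass. Without 1 library Ighv3-6 between untreated genotypes ranged from -0.056 to 0.013, Igkv14-111 after 5-FU from -0.22 to 0.10, Igkv6-25 after 5-FU from -0.24 to 0.19, and the interactions of Iglv2 and Iglv3 from -0.72 to 0.92 and from -0.22 to 0.079. DESeq2 gave 0.70 for the Iglv2 interaction. Another 22 were weaker and 9 stronger. Depth limits segments of few counts after 5-FU, where a count of 0 allows 0.189 or 0.217 CPM.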
